A study of Drosophila melanogaster with 2 samples.

Results

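Araucan peaks at divergent coding promoters are the places where the summit of an Araucan ChIP-seq peak lay close to the transcription start sites (TSSs) of protein-coding genes on both DNA strands. They were chosen from the authors' conservative peak list by position alone: the summit, the base of highest enrichment, had to lie within 500 bp of at least 1 plus-strand and at least 1 minus-strand coding TSS of any annotated transcript. Of 4706 conservative peaks on chromosome arms 2L, 2R, 3L, 3R, 4 and X, 520 met this rule (11.0%, exact 95% interval 10.2 to 12). They made up 30.1% of the 1725 summits within 500 bp of any coding TSS. The other 1205 promoter summits had coding TSSs of 1 strand only and are called one-direction peaks, and 2981 summits had no coding TSS in reach and are called distal peaks. Pairs are written with the minus-strand gene first and the plus-strand gene second.

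The experiment was chromatin immunoprecipitation with sequencing on whole Drosophila melanogaster embryos aged 0 to 24 h of the strain ara-GFP, which carried an ara-eGFP transgene, a fusion of Araucan with enhanced green fluorescent protein. Chromatin was sheared by sonication to 200 to 800 bp and precipitated with an anti-GFP antibody. All samples form 1 group of 2 biological replicates, so groups could not be compared, and the only spread available is that between these 2 libraries. Both came from the same transgenic strain, the native protein was not assayed, and how the fusion's level compared with that of the native protein was not tested. In whole embryos, binding in few cells and weak binding in many cells cannot be told apart. The sources used here give neither the sequencing depth nor the normalization of the signal. Control libraries were not used.

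Araucan is a homeodomain protein that binds DNA and regulates transcription. Its gene belongs to the Iroquois complex, neighbouring genes known in the fly for patterning the eye, the wing veins and the sensory bristles of the thorax. A divergent promoter is a stretch of DNA between a pair of genes transcribed away from each other, so that a single accessible region can serve both. In the compact fly genome such arrangements are common and hold many housekeeping genes, whose promoters are often bound by the DNA replication-related element factor DREF and by the motif 1 binding protein M1BP.

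The DNA between the TSSs of the strongest divergent promoters held more A and T than G and C, as the following 8 sequences show. They belong to the 8 strongest peaks on arms 2L, 3L, 3R and X whose summit lay between TSSs at most 300 bp apart with no annotated exon in between. Each is written 5′ to 3′ on the plus strand, starting next to the TSS of the minus-strand gene and ending next to that of the plus-strand gene, and was read from the RefSeq Release 6 genome, whose arms are those of dm6. Capitals mark matches on either strand to CGATA (the core of the DREF site, read as TATCG on the other strand), GGTCACACT (the M1BP site) or ACANNTGT (the palindrome described for Iroquois proteins). In the order shown they lie at chr3L:5139396-5139618, chr3R:15229409-15229664, chr3R:29736746-29736964, chr3L:9457670-9457911, chr2L:8376798-8377034, chr3L:15982870-15983134, chr2L:17481030-17481230 and chr3R:31616161-31616302.
Tcs5/CHMP2B: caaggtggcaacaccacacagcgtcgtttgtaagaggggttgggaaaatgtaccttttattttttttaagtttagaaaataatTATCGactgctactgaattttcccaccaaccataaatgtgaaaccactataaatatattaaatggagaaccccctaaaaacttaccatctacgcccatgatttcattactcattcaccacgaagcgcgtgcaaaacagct
Art3/mRpS10: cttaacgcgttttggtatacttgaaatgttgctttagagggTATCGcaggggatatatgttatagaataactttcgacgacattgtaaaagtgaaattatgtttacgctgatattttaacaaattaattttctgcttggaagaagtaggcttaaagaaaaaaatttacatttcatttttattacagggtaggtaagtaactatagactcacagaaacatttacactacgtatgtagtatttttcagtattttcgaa
CG7601/CIA30: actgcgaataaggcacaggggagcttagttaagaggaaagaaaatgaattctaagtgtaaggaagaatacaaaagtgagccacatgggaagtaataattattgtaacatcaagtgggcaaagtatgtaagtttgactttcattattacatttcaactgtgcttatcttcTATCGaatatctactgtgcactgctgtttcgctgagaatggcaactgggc
CG3437/CG3552: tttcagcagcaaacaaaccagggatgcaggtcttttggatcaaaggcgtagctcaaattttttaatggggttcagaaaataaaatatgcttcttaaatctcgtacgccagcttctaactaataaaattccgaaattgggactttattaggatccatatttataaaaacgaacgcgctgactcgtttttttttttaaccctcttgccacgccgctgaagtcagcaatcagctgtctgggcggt
CG13390/CG17294: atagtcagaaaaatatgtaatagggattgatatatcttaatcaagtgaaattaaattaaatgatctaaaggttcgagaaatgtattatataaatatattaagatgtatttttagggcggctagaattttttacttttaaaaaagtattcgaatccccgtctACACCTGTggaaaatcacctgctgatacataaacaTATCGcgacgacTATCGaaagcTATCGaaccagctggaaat
brm/Arl1: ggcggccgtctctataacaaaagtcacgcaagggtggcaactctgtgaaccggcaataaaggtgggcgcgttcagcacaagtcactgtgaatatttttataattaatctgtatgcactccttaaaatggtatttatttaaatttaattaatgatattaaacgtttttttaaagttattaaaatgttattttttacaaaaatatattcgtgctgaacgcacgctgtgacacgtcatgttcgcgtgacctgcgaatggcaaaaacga
fws/Lamtor3: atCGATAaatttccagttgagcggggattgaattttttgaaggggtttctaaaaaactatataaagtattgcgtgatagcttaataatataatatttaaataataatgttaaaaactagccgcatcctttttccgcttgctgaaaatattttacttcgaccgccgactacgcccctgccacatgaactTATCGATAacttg
Mnat9/CG1792: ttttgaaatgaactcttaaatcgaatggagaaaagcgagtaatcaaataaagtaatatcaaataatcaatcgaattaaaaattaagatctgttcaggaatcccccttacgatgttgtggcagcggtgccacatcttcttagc
The G+C content of these 8 stretches ran from 30.1% (Art3/mRpS10) to 40.1% (CG3437/CG3552). Shorter windows centred 100 bp upstream of all 13945 coding genes had a median of 36.6%, inside this range. The CGATA core was present in 5 of them, 3 of those 5 being the strongest of the set, and CG13390/CG17294 also held the only ACANNTGT match. No GGTCACACT match was found, and 3 stretches held none of the motifs. The core is a short motif and was about as common where no Araucan summit was found: among annotated divergent promoters with TSSs over 100 and up to 300 bp apart, CGATA lay between the TSSs in 131 of 246 with a summit (53.3%, exact 95% interval 46.8 to 59.6) and in 356 of 628 without one (56.7%, 52.7 to 60.6). In the same gaps ACANNTGT was found in 13.4% with a summit and 11.6% without, and GGTCACACT in 5.69% and 4.30%. The summit fell on base 96 of the 223 bp of Tcs5/CHMP2B, on base 125 of the 256 bp of Art3/mRpS10 and on base 139 of the 265 bp of brm/Arl1, near the middle in each, but on base 10 of the 142 bp of Mnat9/CG1792.

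The signal of the divergent promoter peaks covered a wide range, and both replicates placed it above that of one-direction promoters. Signal here is the authors' deposited value for each peak in the pooled list, beside the value of the matching peak in each replicate. Over the 520 peaks the pooled signal had a median of 123, quartiles of 81.1 and 206 and extremes of 2.88 and 1644. The median was 55.4 in replicate 1 and 71.3 in replicate 2. One-direction peaks had medians of 95.1 pooled, 43.5 in replicate 1 and 56.0 in replicate 2, so that the ratio of the medians was 1.29 pooled and 1.27 in each replicate. Distal peaks had a pooled median of 93.2. The ratio is a description of peaks from 1 experiment, which are not replicates, and it carries no test.

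The classes differed less among strong peaks. Of the divergent promoter peaks, 335 (64.4%, exact 95% interval 60.1 to 68.5) were at or above the median of all conservative peaks, against 597 of 1205 one-direction peaks (49.5%, 46.7 to 52.4). Among peaks at or above that median the ratio of the class medians was 1.04. Of the 100 strongest conservative peaks 25 were divergent, 37 one-direction and 38 distal, and the highest one-direction signal, 2240, was above the highest divergent one, 1644.

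**Figure D1:**
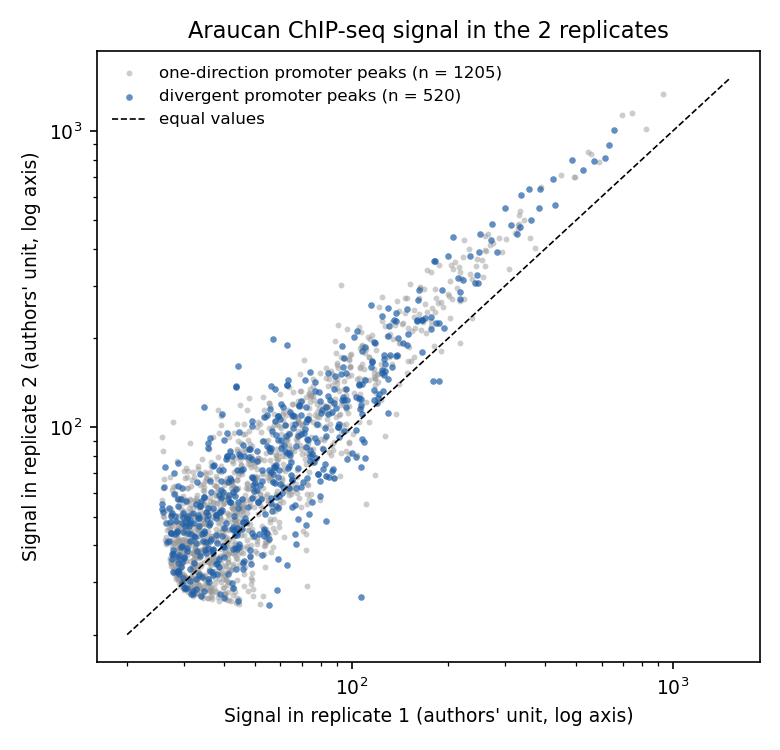
Signal of each promoter peak in replicate 1 (x axis, log scale) and replicate 2 (y axis, log scale), in the authors' unit, for 520 divergent (blue) and 1205 one-direction (grey) peaks; the dashed line marks equal values. Both classes follow the same band, and 415 of the 520 divergent peaks had the higher value in replicate 2.

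The replicates ranked the divergent promoter peaks much alike. Across the 520 peaks Spearman's rho between the replicate signals was 0.81, against 0.76 over 1205 one-direction and 0.69 over 2981 distal peaks. These correlations are across peaks of the same 2 libraries, which share strain and antibody, and give no p-value. The conservative list was itself thresholded on reproducibility between replicates (irreproducible discovery rate, IDR). Part of the agreement in rank and in summit position is therefore set by the choice of peaks. Replicate 2 had the higher value at 415 of 520 divergent peaks, and its ratio to replicate 1 had a median of 1.32 at divergent and 1.29 at one-direction peaks. The plot of the replicate signals shows this as a band above the line of equality, with no separate group of divergent peaks. The summits of the 2 replicates were a median of 20.5 bp apart, and within 50 bp of each other at 394 of the 518 peaks found in both replicates' ranked lists (76.1%).

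Each replicate also has its own thresholded list, and 303 of the 520 peaks overlapped a peak in both (58.3%, exact 95% interval 53.9 to 62.5). Over all conservative peaks this share was 44.9%, and it was 46.8% at one-direction and 41.8% at distal peaks. Replicate 2 alone listed 124 of the divergent peaks, replicate 1 alone listed 20, and 73 were in neither list. The strong peaks were nearly all listed, with 98 of the 100 strongest divergent peaks in both lists. Picked out after the values were seen, eIF4EHP/CG18428 was an exception. Its pooled signal of 560 came with 242 in replicate 1 and 306 in replicate 2, yet neither replicate's own thresholded list held it. eIF4EHP encodes a cap-binding repressor of translation.

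Some of the weakest peaks were second summits of a stronger one. At 13 of the 520, both matched replicate peaks were also those of a stronger conservative peak, and all 13 had a pooled signal under 33. Among the 1205 one-direction peaks 49 shared their replicate peaks in the same way. Without such peaks 507 divergent peaks remained and the ratio of the class medians was 1.27. The 13 peaks are kept in the counts given here.

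Among the 20 strongest divergent promoter peaks, those with a gene of known role are described first. The peak at Tcs5/CHMP2B had values of 655 in replicate 1 and 1003 in replicate 2 (pooled 1644); Tcs5 takes part in a modification of transfer RNA, and CHMP2B is a subunit of the ESCRT-III membrane-remodelling complex. At Art3/mRpS10, a protein arginine methyltransferase gene beside a mitochondrial ribosomal protein gene, the values were 631 and 892 (pooled 1521). At Chro/Ssl1 they were 615 and 807 (pooled 1423); Chro encodes the interband chromatin protein Chromator, and Ssl1 a subunit of the general transcription factor TFIIH. CG7601/CIA30, which includes the gene of an assembly factor of respiratory complex I, had 567 and 790 (pooled 1325).

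Others of the 20 also had a gene of known role. Those of mRpS23/CenG1A (486 in replicate 1 and 795 in replicate 2) and mRpL23/CG9004 (422 and 687) again include genes of mitochondrial ribosomal proteins. CG5611/Mtl, at a Rac-family GTPase gene, had 525 and 738. Pex11ab/CG8320, at a gene of peroxisome division, had 429 and 564, and CG1275/Elp5, at a gene of the Elongator complex, had 337 and 606. The chromatin-remodelling ATPase gene brm shared its promoter with Arl1, which encodes a GTPase of the Golgi, at 299 and 547. The gene fws, which encodes a subunit of the Golgi-tethering COG complex, shared its promoter with Lamtor3, of the lysosomal Ragulator complex, at 335 and 474. At Mppe/pds5, of which pds5 encodes a regulator of cohesin, the values were 327 and 450.

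The other members of the 20 strongest were CG3437/CG3552, Fbw5/CG9147, CG13390/CG17294, tank/CG12194, Mnat9/CG1792, CG8372/CG8360, Reps/l(2)gd1 and CG5757/CG5098, given here without roles, with pooled signals from 692 at the last to 1036 at the first. All 20 were listed in both replicates and had the higher value in replicate 2. Their summits lay between the TSSs at 13 of the 20, and the distance between the TSSs ran from 33 to 505 bp, so the strongest peaks were not tied to 1 arrangement.

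Nearly all divergent promoter peaks lay at genes arranged head to head. The rule asks for coding TSSs of both strands close to 1 summit. How often such TSSs are head to head in the whole annotation was not counted, so this share has no background beside it. At 508 of 520 peaks (97.7%) the nearest minus-strand TSS lay to the left of the nearest plus-strand TSS, and the summit was between them at 402 (77.3% of all 520, exact 95% interval 73.5 to 80.8). At 106 the summit lay at or beyond 1 of the TSSs. At the remaining 12 the 5′ ends of the genes overlapped, the strongest of these being CG31808/Cyt-c-d (182 in replicate 1 and 364 in replicate 2) and CG4741/Adck1 (247 and 307). Cyt-c-d encodes a cytochrome c. Peaks between the TSSs had medians of 56.2 in replicate 1 and 72.8 in replicate 2, and the 106 outside had 50.5 and 60.0.

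The distance between the TSSs, the gap, had a median of 274 bp over the 508 head-to-head peaks, with quartiles of 204 and 374 bp. Gaps are grouped below in steps, each without its lower and with its upper limit. The smallest gaps were 6 bp at CG3032/CG4593 (68.0 in replicate 1 and 72.7 in replicate 2) and 8 bp at SerRS/CG17260 (109 and 89.4); SerRS encodes seryl-tRNA synthetase. The largest were 670 bp at Nepl19/Nepl20 (76.8 and 133), 657 bp at Fdh/CG4596 (41.8 and 56.2) and 656 bp at CG3735/Taldo (30.7 and 38.4). Nepl19 and Nepl20 are neprilysin-like peptidase genes and Taldo encodes transaldolase. At these smallest gaps both summits lay outside the gap, and at the largest all 3 lay inside. Neither outcome was free to vary much. The smallest gaps leave almost no room for a summit. The largest are wider than the distance limit of the rule, so a summit in reach of both TSSs must lie between them.

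**Figure D2:**
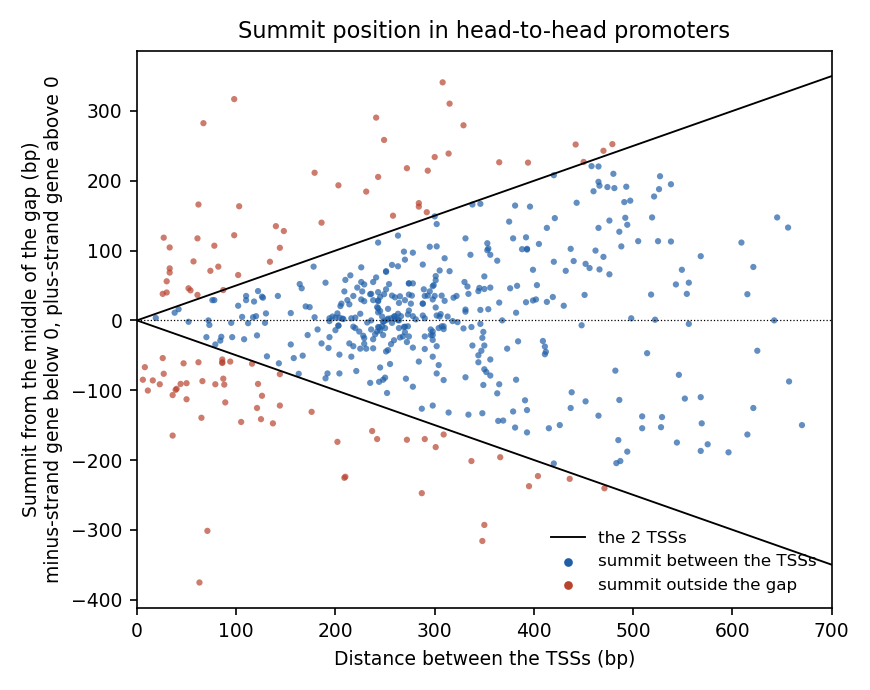
Position of each of 508 summits relative to the middle of the gap (y axis, bp) against the distance between the TSSs (x axis, bp); black lines are the TSSs. Blue summits (402) lie between them and red ones (106) do not; below 100 bp most summits lie outside, and between 200 and 300 bp most sit near the middle.

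Where the summit sat depended on the gap. At gaps up to 100 bp the summit was between the TSSs at 14 of 62 peaks (22.6%), at 100 to 200 bp at 42 of 60 (70%), at 200 to 300 bp at 155 of 175 (88.6%), at 300 to 400 bp at 94 of 107 (87.9%) and above 400 bp at 97 of 104 (93.3%). A wider gap leaves more room between the TSSs, so part of this order follows from length alone. Where the gap is wider than the distance limit of the rule, the rule also allows no summit outside it. At gaps up to 100 bp the summit was 70.2 to 126 bp (quartiles) upstream of the farther TSS, and its median position relative to the other, counted upstream, was -44.5 bp, inside that gene. At 200 to 300 bp it was a median of 162 bp upstream of one TSS and 92.0 bp upstream of the other, and above 400 bp these medians were 382 and 122 bp. One-direction summits lay a median of 109 bp upstream of their TSS, with 855 of 1205 upstream (71.0%).

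Among the 402 summits between the TSSs, 270 (67.2%, exact 95% interval 62.3 to 71.7) fell in the central 50% of the gap. The share was 127 of 155 (81.9%, 75 to 87.6) at gaps of 200 to 300 bp, 63.8% at 300 to 400 bp and 52.6% above 400 bp. The map of summit positions shows this as a cluster on the midline at 200 to 300 bp that spreads towards both TSSs in wider gaps.

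Promoters with gaps of 200 to 300 bp had the highest median signal in both replicates. Their 175 peaks had medians of 64.5 in replicate 1 and 93.7 in replicate 2 (pooled 161). Up to 100 bp the medians were 55.4 and 69.3 (pooled 118), at 100 to 200 bp 48.6 and 63.3 (pooled 105), at 300 to 400 bp 49.0 and 60.5 (pooled 110), and above 400 bp 46.2 and 63.6 (pooled 107). The ratio of the 200 to 300 bp median to that of the other 333 head-to-head peaks was 1.33 in replicate 1 and 1.5 in replicate 2. The classes overlapped widely, with quartiles of 98.7 and 254 at 200 to 300 bp against 79.3 and 175 up to 100 bp. In the list of replicate 1 alone, where peaks were called and thresholded separately, the order was close to a tie, with medians of 83.0 at 200 to 300 bp and 82.2 up to 100 bp; in that of replicate 2 they were 90.3 and 73.4. The share listed in both replicates was 69.1% (61.7 to 75.9) at 200 to 300 bp and between 51.9% and 56.5% at the other gaps.

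**Figure D3:**
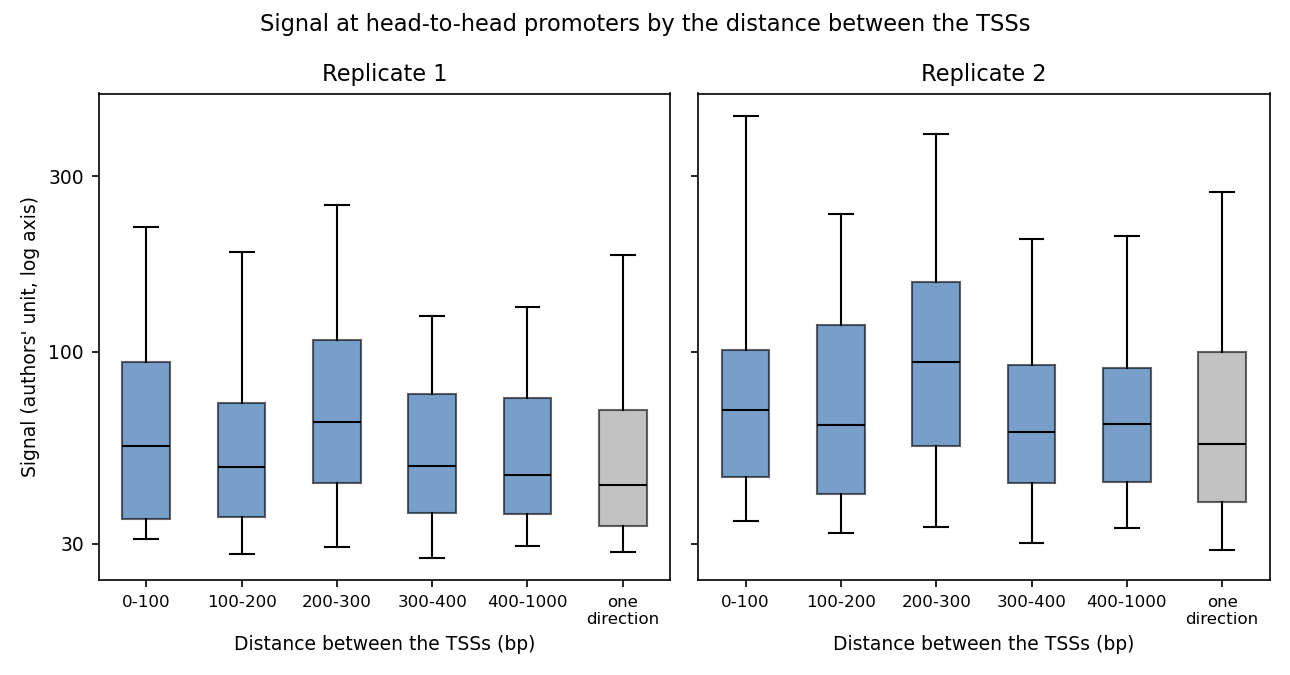
Signal (y axis, authors' unit, log scale) of head-to-head divergent promoter peaks by the distance between the TSSs (x axis, bp), beside one-direction peaks in grey, in each replicate. Boxes give the median and quartiles and whiskers the 5th and 95th percentiles; the 200 to 300 bp box has the highest median in both, 64.5 and 93.7.

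Seen from the annotation, about 1 in 5 divergent promoters carried an Araucan summit. The annotation held 2522 head-to-head promoters with coding TSSs at most 1000 bp apart, and 516 of them (20.5%, exact 95% interval 18.9 to 22.1) had a summit within 500 bp of both TSSs. The share was 179 of 526 (34.0%, 30 to 38.3) at gaps of 200 to 300 bp. It was 21.2% up to 100 bp, 19.3% at 100 to 200 bp, 24.7% at 300 to 400 bp and 10.5% at 400 to 1000 bp. Under the same 500 bp rule the list of replicate 1 alone gave 24.0% at 200 to 300 bp and at most 15.3% at other gaps, and that of replicate 2 alone gave 34.4% and at most 22.3%. The rule leaves a narrower stretch for the summit the wider the gap is, so the low share at wide gaps follows in part from the rule. No summit met it at gaps above 700 bp.

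A window of the same width at every gap gave the same maximum. A summit within 100 bp of the midpoint, a choice made after the data were seen, was found at 144 of 526 promoters with gaps of 200 to 300 bp (27.4%, 23.6 to 31.4). The share was 11.8% up to 100 bp, 12.9% at 100 to 200 bp, 16.6% at 300 to 400 bp and 3.96% above. The midpoint lies at a different distance from the TSSs at each gap, so this window does not cover the same part of each promoter. One-direction summits lay a median of 109 bp upstream of their TSS. How far such a preferred distance sets the maximum was not tested. The bar chart of shares shows that the interval at 200 to 300 bp stands clear of the others under both windows.

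**Figure D4:**
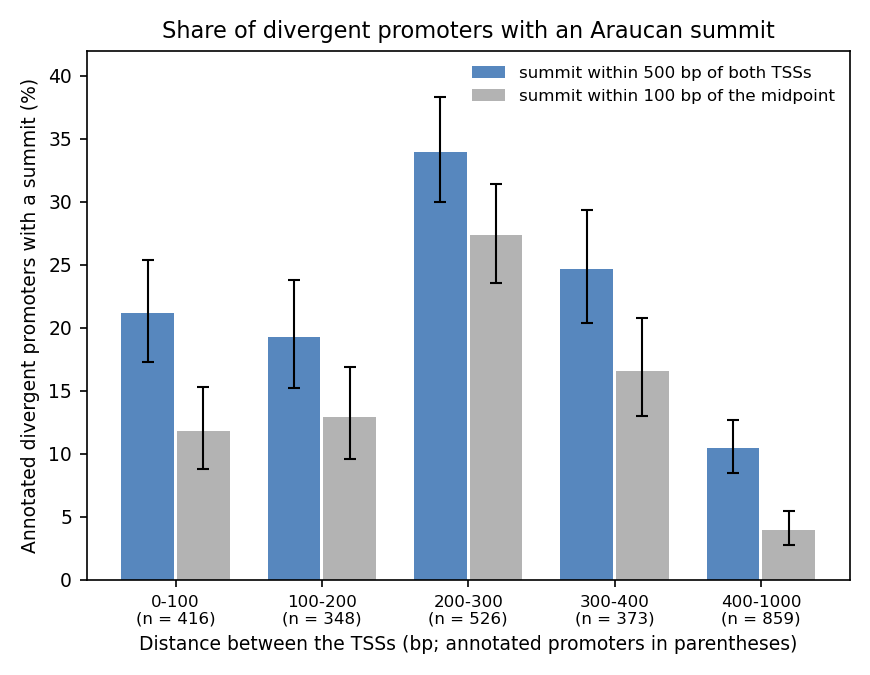
Share of annotated divergent promoters with an Araucan summit (y axis, %) by the distance between the TSSs (x axis, bp), for summits within 500 bp of both TSSs (blue) and within 100 bp of the midpoint (grey). Bars start at 0 and error bars are exact 95% intervals; the 200 to 300 bp class is highest, at 34.0% and 27.4%.

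Genes with a head-to-head neighbour had an Araucan summit at the promoter more often than other genes. Of 5052 coding genes with such a partner within 1000 bp, 1246 had a summit within 500 bp of a TSS (24.7%, exact 95% interval 23.5 to 25.9), against 853 of 8893 other coding genes (9.59%, 8.99 to 10.2). Genes of a pair share their summits and are not independent. Counted per length of promoter window, the density was 177 summits per Mb at partnered genes and 85.5 per Mb at the others.

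Cytosolic ribosomal protein genes had the highest count among the lists of genes examined. A divergent promoter peak lay within 500 bp of an own TSS of 26 of 86 such genes (30.2%, exact 95% interval 20.8 to 41.1), against 7.40% of all 13945 coding genes. Of the 53 ribosomal protein genes with a head-to-head partner 26 had a peak (49.1%), against 20.3% of all partnered genes. The list of replicate 1 alone gave 21 genes and that of replicate 2 alone 25. A further 25 of the 86 had a summit of another class only, against 1067 of all 13945 coding genes. Their divergent promoter peaks had a median of 148. The strongest were at Ripalpha/RpL7 (194 in replicate 1 and 216 in replicate 2) and RpS27/Nup37 (187 and 143), where Nup37 encodes a nuclear pore protein. The whole-series data had already shown many ribosomal protein loci with peaks, so the count adds only where in the locus they lie.

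Among mitochondrial ribosomal protein genes 11 of 75 had a divergent promoter peak (14.7%, exact 95% interval 7.56 to 24.7). Of the 59 with a partner it was 18.6%, near the 20.3% of all partnered genes. Their median signal of 395 was the highest of the lists with more than 1 gene, led by mRpS10 and mRpS23. Among genes of oxidative phosphorylation 13 of 87 had a peak (14.9%, and 29.5% of the 44 with a partner), the strongest at ND-ASHI/Fum1 (149 in replicate 1 and 190 in replicate 2) and TppII/ND-MWFE (94.5 and 124), both with subunits of respiratory complex I. Of 11 mitochondrial import genes only Tom7, of the outer-membrane translocase, had one, at 26.2 and 73.4.

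Other lists of gene expression held small numbers, and the exact intervals of translation factors, RNA polymerase subunits, splicing and nuclear pore genes included the background of 7.40%. Peaks lay at 9 of 33 aminoacyl-tRNA synthetase genes (27.3%, exact 95% interval 13.3 to 45.5), first of all at GluProRS/AP-1sigma (137 in replicate 1 and 174 in replicate 2) and Hem/IleRS (95.7 and 135). Translation factors had 7 of 54, led by eIF4EHP and by eIF1 at RpL28/eIF1 (110 and 78.6). Genes of tRNA and rRNA modification had 7 of 28, led by Tcs5 and Elp5. Mediator and general transcription factor genes had 10 of 51, with Taf5, a TFIID subunit, at Taf5/Pex6 (108 and 181) and Brf, a subunit of the RNA polymerase III factor TFIIIB, at Brf/sds22 (105 and 139). RNA polymerase subunit genes had 4 of 30, among them Polr2B at 140up/Polr2B (62.9 and 189) and Polr2H (93.8 and 127). Splicing genes had 4 of 31, led by Sf3b6 (59.0 and 67.8) and SmD3 (59.4 and 58.8), and nuclear pore genes 4 of 21, led by Nup37 and by Nup98-96 (75 and 81.6).

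The exact intervals of DNA replication, V-ATPase and proteasome genes also included 7.40%. DNA replication genes had 5 of 33, led by PolD2, a subunit of DNA polymerase delta, at 161 in replicate 1 and 269 in replicate 2, and by RPA1 (31.4 and 47.6). V-ATPase genes had 5 of 33, led by Vha16-5 (102 and 202) and Vha100-2 (70.8 and 95.5). Proteasome genes had 4 of 49 (8.16%), led by Rpn3 (84.4 and 128) and Rpt5 (34.8 and 58.0). Membrane traffic genes had 12 of 77 (15.6%), led by the coatomer gene alphaCOP (176 and 214) and by Vps33B (126 and 150).

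Genes of insulator and housekeeping promoter factors had a peak at 5 of 18 (27.8%, exact 95% interval 9.69 to 53.5), and all 5 peaks were listed in both replicates. They were Chro, Cp190 at Cp190/CG4338 (160 in replicate 1 and 228 in replicate 2), pzg at CG12974/pzg (60.1 and 120), M1BP at M1BP/CG8202 (87.7 and 72.2) and Dref at Dref/RpL13 (60.1 and 84.9). M1BP and Dref encode the factors that bind the motifs searched for here, and Cp190 encodes a protein of insulator complexes. The last 3 were chosen after their values were seen, to name all 5. By contrast no divergent promoter peak lay at any of 49 homeobox genes, of which only 2 had a head-to-head partner, or at any of 44 developmental signalling genes, of which 16 had one. These counts of 0 allow shares of up to 7.25% and 8.04% (exact 95% intervals), so the background of 7.40% is just outside the first and within the second. At 7 of the 49 homeobox genes and 11 of the 44 signalling genes a summit of another class lay within 500 bp of a TSS. Among all coding genes a summit of another class only was found at 1067 of 13945. The counts of 0 therefore concern divergent promoter peaks and not promoter summits of every class.

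The exact interval lay above 7.40% for 8 of the 18 lists and below it for 1, the homeobox genes. All 8 also had a larger share of partnered genes than the 36.2% of all coding genes, and the rule requires a gene on each strand. Among partnered genes alone, where the share of all coding genes was 20.3%, it was 18.6% for mitochondrial ribosomal proteins, 23.5% for membrane traffic, 27.0% for Mediator and general transcription factors, 29.5% for oxidative phosphorylation, 31.8% for tRNA and rRNA modification, 39.1% for aminoacyl-tRNA synthetases, 49.1% for cytosolic ribosomal proteins and 55.6% for the 9 partnered insulator and promoter factors. In all, 123 of the 520 peaks (23.7%) had a gene of at least 1 of these 18 lists in the window. At 52 the genes on both strands were known only by CG numbers. These counts and the next were not made at other promoters, so they have no background beside them. At 7 peaks both nearest genes were in a list. These included Dref/RpL13, RpL28/eIF1, RpS27/Nup37 and RPA1/Mcm2, the last joining a pair of DNA replication genes, with 31.4 in replicate 1 and 47.6 in replicate 2.

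Peaks were spread over the large arms. Arm 3R held 149, 3L 110, 2L 104 and X 56, while none of the 4 conservative peaks of chromosome 4 met the rule. As a share of each arm's conservative peaks, this was 13.8% on 3R, 11.7% on 2L, 11.2% on 2R, 10.4% on 3L and 7.24% on X (exact 95% interval 5.51 to 9.29). Of the annotated divergent promoters, 57 of 392 on X had a summit (14.5%, 11.2 to 18.4), against 18.4% to 24.6% on the other large arms, so X was lowest by both counts. The interval of X overlapped those of 2L and 2R in the shares of promoters and those of 2R and 3L in the shares of peaks.

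The 520 peaks had 499 distinct nearest gene pairs and 997 genes, since 21 pairs held 2 summits each. At 13 of these 21 pairs the weaker summit was one that shared both replicate peaks with the stronger. Pairs with separate values in at least 1 replicate included Acbp1/Piezo, at a mechanosensitive channel gene, with pooled signals of 212 and 137 about 200 bp apart, and RpL18/Neos, with 78.7 and 67.4. At CG5757/CG5098 the summits had 692 and 79.9, and at p38a/CG6178, at a stress-activated kinase gene, 231 and 40.2. At 25 of the 520 peaks (4.81%) 3 or more coding genes had a TSS in the window. A long non-coding RNA started in the window at 8 peaks (1.54%, exact 95% interval 0.666 to 3.01), against 53 of 1205 one-direction peaks (4.40%, 3.31 to 5.71).

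The sequence under the summits was richer in A and T at divergent than at one-direction promoters, but by less among stronger peaks. In windows of 50 bp on either side of the summit the median G+C content was 31.7% (quartiles 25.7 and 40.6) at divergent peaks, 38.6% (29.7 and 48.5) at one-direction peaks and 34.7% at distal peaks. Windows of that width centred 100 bp upstream of all 13945 coding genes had 36.6%. The stronger divergent peaks, those at or above the median of all conservative peaks, had 29.7% and the weaker ones 38.6%. Stronger one-direction peaks had 32.7%, so the classes were closer among stronger peaks than among all peaks. Stronger peaks made up a larger share of the divergent class, and the part of strength in the difference over all peaks was not tested. Divergent peaks at gaps of 200 to 300 bp had 28.7%. At the midpoints of annotated divergent promoters with gaps over 100 bp the median was 27.7% with a summit and 30.7% without one.

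**Figure D5:**
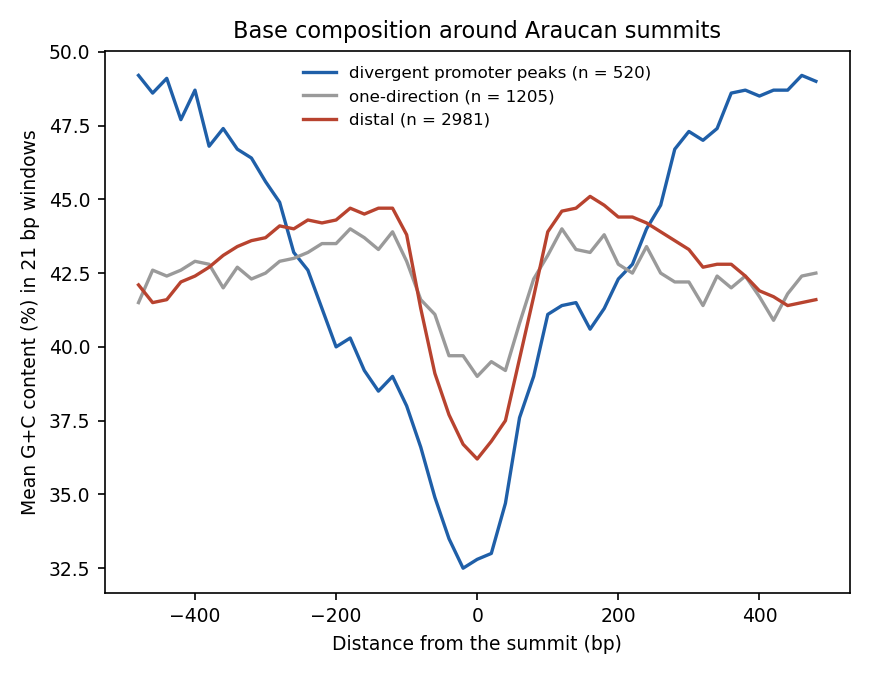
Mean G+C content (y axis, %) in 21 bp windows at distances from the summit (x axis, bp) for 520 divergent, 1205 one-direction and 2981 distal peaks. All 3 classes dip at the summit; the divergent class falls from 49.2% at its left edge to 32.5% just beside the summit, over a wider stretch than the others.

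The plot of base composition shows how far the dip extended. At divergent peaks the mean G+C content fell from 49.2% at 480 bp on the left and 49.0% on the right to 40.0% and 42.3% at 200 bp and to 32.8% at the summit. At one-direction peaks it was 41.5% and 42.5% at 480 bp and 39.0% at the summit. At distal peaks it was 42.1% and 41.6%, and 36.2% at the summit. The flanks of divergent peaks hold the transcribed starts of genes on both sides, which the rule sets.

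Short motifs in the same windows were searched on both strands, and a match is a description of the letters only. The DREF site TATCGATA was found in 18 of 520 divergent windows (3.46%, exact 95% interval 2.06 to 5.42). It was in 1.83% of one-direction windows and in 2.62% of all coding promoter windows. At the midpoints of annotated divergent promoters with gaps over 100 bp, the site was in 1.87% with a summit and 1.97% without one. It was rarer under the stronger divergent peaks (4 of 335, 1.19%) than under the weaker (14 of 185, 7.57%, 4.2 to 12.4). The core CGATA, which every TATCGATA match contains, was in 21.7% of divergent, 15.3% of one-direction and 20.4% of all promoter windows. It was in 17.6% under the stronger and 29.2% under the weaker divergent peaks. At the same midpoints the core was in 15.4% with a summit and 18.2% without one. GGTCACACT was in 5 of 520 divergent windows (0.962%), near its share of 0.830% in one-direction and 1.05% in all promoter windows. All 5 were under weaker peaks (5 of 185, exact 95% interval 0.883 to 6.19%). None was under the 335 stronger ones (0 to 1.10%), so the intervals overlapped. In wider windows of 250 bp on either side of the summit, TATCGATA matches numbered 118 at 102 peaks. They lay a median of 94.0 bp from the summit, so most were outside the window of 50 bp. Matches in the wider windows were not counted at other promoters, so their number and distance have no background beside them.

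Of the motifs described for Iroquois proteins, the palindrome had about the same share in every class, and the pentamer TAACA was more frequent in divergent windows, as was its control. The palindrome ACANNTGT was in 23 of 520 windows (4.42%, exact 95% interval 2.82 to 6.56), in 4.40% of one-direction and 4.27% of all promoter windows. Its rearranged control ACTNNAGT was in 1.73%, 2.74% and 2.02%. The pentamer TAACA was in 31.9% of divergent, 23.2% of one-direction and 24.7% of all promoter windows, and its control TACAA of the same composition was in 31.7%, 26.1% and 25.3%. At the midpoints of annotated divergent promoters with gaps over 100 bp, TAACA was in 36.7% of windows with a summit (exact 95% interval 32.1 to 41.4) and 29.1% without one (27 to 31.4), while TACAA was in 32.0% and 32.4%. There TAATTA was in 17.3% and 11.8%, and ACANNTGT in 3.97% and 4.41%. The A- and T-rich motifs TAATTA, a homeodomain core, and TATAAA, the TATA box, were in 14.0% and 26.7% of divergent windows against 7.63% and 17.7% of one-direction windows. GAGAG was in 6.73% against 14.4%. At the midpoints described above, TATAAA was in 30.4% of windows with a summit and 25.7% without one, and GAGAG in 6.31% and 7.93%. For both motifs, divergent promoters without a summit were thus nearer to the divergent peaks than one-direction peaks were. The differences between classes move with the base composition given above, whose part in them was not tested. CAGCTG, an E-box, was in 6.15% of divergent against 4.98% of one-direction windows.

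The 500 bp limit cut through a continuum. Just inside it lay tank/CG12194, whose farther TSS was 490 bp away (pooled signal 857), CG12929/RpL31 at 492 bp (159) and Ubi-p63E/Sc2 at 495 bp (65.1). Just outside lay Nab2/BRWD3 at 505 bp (88.1), CG6550/Mtap at 506 bp (23.4) and Pex16/Pex14 at 506 bp (74.6). With a limit of 250 bp 337 peaks met the rule.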

How the data were processed

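ChIP-seq peaks from 2 biological replicates of ara-eGFP embryos were read from the deposited peak lists, on dm6 per the labels. The aligner, peak caller, depth and control subtraction were not given in the sources used here. Signal values are those the authors deposited, with a normalization that the lists do not state. It was used to rank and describe peaks within a list. The score column of the thresholded lists was not analysed beyond their lowest value, 830. Values named replicate 1 and replicate 2 are those of the matched replicate peaks in the authors' series-wide ranked list, and were found in the replicates' own lists for 518 and 520 of the 520 peaks.

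From there, summits were assigned to TSSs of all transcripts of 13945 protein-coding genes of Ensembl release 115 (BDGP6 annotation 6.54). The 6 arms of the genome sequence used have the names of dm6 and contain every peak. Calculations used Python 3.11.15, numpy 2.4.6, pandas 2.3.3 and scipy 1.17.1, with figures from matplotlib 3.10.9. The counting steps were tested on simulated data. Intervals are exact Clopper-Pearson intervals at 95% and cover counting error only. Peaks overlapped if they shared at least 1 bp. There were no tests, because the design holds 1 group. Genes were named by rule: those at the 20 strongest peaks, the 2 strongest of each of 18 lists, the extreme gaps and pairs with more than 1 summit; others are said to be chosen after their values were seen, and 1 pair that the rule names is not reported here. The peaks, gene lists (matched by symbol) and motifs were chosen with earlier results of these data known. Alternatives were another thresholded list, stronger peaks, other TSS sets and windows, and each replicate alone.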

Additional observations from a re-analysis of the deposited data

How the results depend on the processing

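No paired analysis was possible because the samples form a single group. The replicates' own lists, called separately, give values whose scale need not match the pooled one. The number of divergent promoter peaks (520) was 335 with stronger peaks only and 337 with a 250 bp window, and 322 to 489 in the list of 1 replicate. The ratio of the divergent to the one-direction median (1.29) was also 1.29 in the other thresholded list. That alternative counts as moved only because the yardstick, the spread between the replicates' ratios, was very small. This spread does not measure the uncertainty of the ratio. The ratio was 1.04 among stronger peaks, 1.49 with a 250 bp window and 1.14 to 1.18 in the list of 1 replicate. Without peaks that share both replicate peaks with a stronger one, a choice made after seeing the data, it was 1.27. The share between the TSSs (77.3%) was 81.2% among stronger peaks and 69.2% with the outermost TSS of each gene. The share of annotated divergent promoters with a summit (20.5%) was 22.4% in the other list, 13.9% among stronger peaks and also 13.9% with a 250 bp window, 13.2% within 100 bp of the midpoint (chosen after seeing the data), and 13 to 19.5% in the list of 1 replicate. The share listed in both replicates (58.3%) was 52.2%, 83.9% and 64.7% in the other list, among stronger peaks and with a 250 bp window; leaving out a replicate gives it no value. The causes were not tested, apart from windows and lists that hold fewer peaks by construction. In the other 15 of these 34 alternatives the value stayed within its interval, or within 1.5 times for the count. Of 22 motif alternatives 15 moved beyond the interval, mostly with windows of 100 bp on either side, which hold more letters. Depth is unknown, so weak peaks missing from a replicate's list cannot be told apart from absent ones.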
